A study of Triticum aestivum with 6 samples.

Results

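LBD37, LBD38 and LBD39 are closely related plant transcription factors of the LATERAL ORGAN BOUNDARIES domain (LBD) family, and their genes were followed here in wheat roots supplied with abscisic acid (ABA) with or without nitrate. A gene was included when the first protein name that the deposited table gives for it, taken from UniProt, was LOB domain-containing protein 37, 38 or 39. The rule found 6 of the 83219 genes in the table. LBD37 named 3 of them, LBD39 named the other 3, and LBD38 named 0. The LBD37 genes are TraesCS2A02G194500, TraesCS2B02G212400 and TraesCS2D02G193400, and the LBD39 genes are TraesCS4A02G236200, TraesCS4B02G078800 and TraesCS4D02G077600. The entry of TraesCS2D02G193400 also lists LBD39 as a further match. These names are matches to plant proteins and not curated wheat names. Wheat is hexaploid, and within each name the 3 IDs lie on the A, B and D copies of the same chromosome. They are therefore called the A, B and D copies below, and how the counting divided reads between near-identical copies is not given in the sources used here.

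LBD proteins are found only in plants and bind DNA through the LOB domain. In Arabidopsis, LBD37, LBD38 and LBD39 belong to class II of the family, are induced by nitrate, and act as repressors: plants that overexpress them have less transcript of the genes for nitrate uptake, nitrate reduction and anthocyanin synthesis. Their role in wheat roots is not stated in the labels.

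The study measured poly(A) RNA by sequencing in roots of wild-type wheat (Triticum aestivum, line JW1) seedlings. Seedlings germinated for 3 days, lost their endosperm, grew 3 days with 2 mM nitrate and were then held 2 days without nitrogen. Roots were taken after a last 3 h with 5 µM ABA plus either 2 mM KCl (0N+ABA, 3 libraries) or 2 mM KNO3 (2N+ABA, 3 libraries). Both groups thus carry ABA, and both had been starved of nitrogen; the groups without ABA were not analysed here. Nitrate took the place of chloride, so their effects cannot be told apart. The labels do not say whether the 3 libraries of a group came from separate cultures, and p-values measure the spread between these libraries, which may be partly technical.

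The libraries held 16907317 to 17735564 estimated counts each. One label of each sample reads leaf, but root is what its other labels and the extraction protocol give. Summed TPM (a level scaled to gene length and to library size) of 17 genes for the small subunit of RuBisCO, the carbon-fixing enzyme of leaves, was 27.7 to 50.9 in 0N+ABA and 12.5 to 48.2 in 2N+ABA. Of these 17 genes, 6 were at 0 in every library. Over all 113 leaf marker genes, 21 of them at 0 throughout, the sum was 186 to 287 TPM in 0N+ABA and 134 to 287 TPM in 2N+ABA. Casparian strip membrane proteins, which mark the root endodermis, summed to 117 to 198 TPM in 0N+ABA and 158 to 191 TPM in 2N+ABA over 7 genes. Nicotianamine synthases, which serve iron uptake in grass roots, summed to 52.5 to 89.4 TPM in 0N+ABA and 58.9 to 70 TPM in 2N+ABA over 25 genes. Leaf and root marker levels overlapped between the groups for these lists. A further planned root list, 44 genes named high-affinity nitrate transporter, did not overlap. It summed to 302 to 347 TPM in 0N+ABA and 2555 to 3999 TPM in 2N+ABA, and these genes are described below. On the first principal component of all tested genes, which held 42.1% of the variance, scores were -63.8, -1.28 and -74.1 for 0N+ABA and 38.8 to 59.9 for 2N+ABA. Replicate 2 of 0N+ABA thus stood apart from the other 0N+ABA libraries, and results are given with and without it where it moves them.

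All 3 LBD39 genes rose in 2N+ABA, whereas none of the 3 LBD37 genes passed the test. Genes were tested with edgeR's quasi-likelihood test on the estimated counts and called at a Benjamini-Hochberg adjusted p under 0.05 over 53862 genes. Of all genes tested, 2.25% were called in either direction and 1.67% were called higher in 2N+ABA. In bulk RNA, fewer cells of a type and less RNA per cell cannot be told apart. Levels below are CPM, counts scaled to library size with TMM factors, unless TPM is named.

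The A copy of LBD39, TraesCS4A02G236200, stood at 0.861, 0.687 and 0.413 CPM in 0N+ABA replicates 1, 2 and 3 and at 17.3, 17.0 and 15.2 CPM in 2N+ABA replicates 1, 2 and 3. The groups were far apart, and no 2N+ABA library came near any 0N+ABA library. Its mean went from 0.653 ± 0.226 to 16.5 ± 1.14 CPM (SD, n = 3 each). This is a log2 fold change of 4.64 (SE 0.207), or 24.9-fold with a 95% interval of 18 to 34.6, at an adjusted p of 5.73e-05 in edgeR's quasi-likelihood test. By p-value it was number 7 of all tested genes, and by fold number 30 among those higher in 2N+ABA.

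The B copy, TraesCS4B02G078800, followed the same course, with 0.574, 0.801 and 0.295 CPM in 0N+ABA and 13.5, 14.3 and 13.2 CPM in 2N+ABA. Its log2 fold change of 4.60 (SE 0.237), 24.2-fold with an interval of 16.6 to 35.2, had an adjusted p of 9.44e-05 by edgeR. The D copy, TraesCS4D02G077600, was at 0.344, 0.229 and 0.825 CPM in 0N+ABA and at 6.86, 5.92 and 6.76 CPM in 2N+ABA. Again the groups did not overlap, but replicate 3, the lowest 0N+ABA library for the A and B copies, was the highest for the D copy. Its rise was 13.9-fold with an interval of 8.29 to 23.2, a log2 fold change of 3.79 (SE 0.325), at an adjusted p of 0.00102 by edgeR. The intervals of the A and D copies overlap, and the difference between the copies' folds was not tested.

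The LBD39 folds rest on few reads in 0N+ABA. The estimated counts there were 15, 12.2 and 7.01 for the A copy, 10, 14 and 5 for the B copy, and 6, 3.76 and 13.99 for the D copy, against 97.02 to 303 in 2N+ABA over the 3 genes. To be tested, a gene had to reach 0.578 CPM, here without TMM scaling, in 3 libraries. The A, B and D copies did so in 2, 2 and 1 of the 0N+ABA libraries and in all 3 of the 2N+ABA libraries. They therefore entered the test through 2N+ABA, and their passing the filter is no support for the difference; with no filter on low counts all 3 were also called. Without 0N+ABA replicate 2, the log2 fold changes were 4.68, 4.95 and 3.47 for the A, B and D copies, and all 3 were called.

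**Figure D1:**
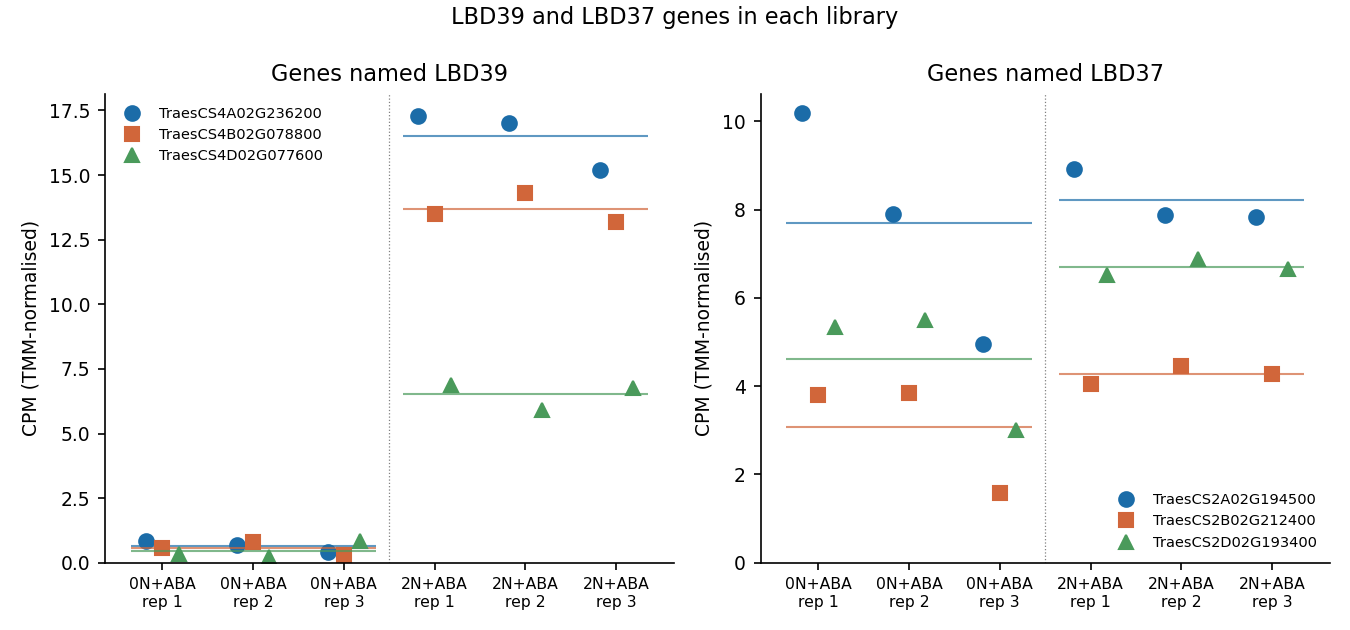
Level in CPM (vertical axis, TMM-scaled, from 0) of each LBD39 gene (left) and each LBD37 gene (right) in the 6 libraries; points are libraries and horizontal lines are group means. The LBD39 genes lie below 1 CPM in every 0N+ABA library and between 5.92 and 17.3 CPM in 2N+ABA, while the LBD37 genes sit at similar levels in both groups apart from a low 0N+ABA replicate 3.

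LBD37 was already present without nitrate. Its A copy, TraesCS2A02G194500, stood at 10.2, 7.9 and 4.95 CPM in 0N+ABA and at 8.92, 7.87 and 7.83 CPM in 2N+ABA. The 0N+ABA values enclosed all 2N+ABA values. The log2 fold change was 0.09 with a 95% interval of -0.44 to 0.63 (adjusted p = 0.888 by edgeR), an interval that allows folds of 0.737 to 1.54.

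For the B copy of LBD37, TraesCS2B02G212400, the values were 3.79, 3.84 and 1.59 CPM in 0N+ABA and 4.06, 4.45 and 4.28 CPM in 2N+ABA. The D copy, TraesCS2D02G193400, gave 5.34, 5.5 and 3.01 CPM in 0N+ABA and 6.52, 6.89 and 6.65 CPM in 2N+ABA. In both copies every 2N+ABA library was above every 0N+ABA library, by little except against replicate 3. The B copy had a log2 fold change of 0.47, interval -0.20 to 1.14 and adjusted p = 0.48 by edgeR. The D copy had a log2 fold change of 0.53, interval 0.04 to 1.03 and adjusted p = 0.27 by edgeR. Groups thus did not overlap, with 2N+ABA higher, in 2 of the 3 LBD37 genes, compared with 11.3% of all tested genes. The 3 LBD39 genes did not overlap either, but they entered the test through 2N+ABA, so their count is no support. Copies may share reads and are not independent cases.

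The 3 LBD37 copies shared their lowest library. Replicate 3 was the lowest 0N+ABA library for all 3, and relative to each gene's mean over the 6 libraries it lay at -0.65, -1.12 and -0.85 on the log2 scale for the A, B and D copies. The median of all tested genes in that library was 0.01, near 0 as in every library after scaling and centring. Of all tested genes, 4.46% were at or below the highest of these 3 values. Summed over the copies, LBD37 was at 19.3, 17.2 and 9.55 CPM in 0N+ABA and at 19.5, 19.2 and 18.8 CPM in 2N+ABA. The sum was low in replicate 3, whose position on the first principal component, -74.1, was near that of replicate 1, at -63.8. Why LBD37 was low in replicate 3 was not tested. The A copy also differed between replicates 1 and 2 of 0N+ABA, at 10.2 and 7.9 CPM, by more than the range of 7.83 to 8.92 CPM in 2N+ABA, while the B and D copies were level in these 2 libraries. Without replicate 3 of 0N+ABA, the log2 fold changes of the A, B and D copies were -0.14, 0.16 and 0.30, and the A copy turned to the other sign. With any 1 library left out, 0 of the 3 were called.

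Levels of different genes were compared in TPM, which is per gene length. In 0N+ABA the order from the highest mean was LBD37 A at 7.06 ± 2.46, LBD37 D at 4.70 ± 1.41, LBD37 B at 3.61 ± 1.50, LBD39 D at 1.04 ± 0.728, LBD39 A at 0.690 ± 0.242 and LBD39 B at 0.633 ± 0.281 TPM (SD, n = 3). Neighbours in that order overlapped in range except LBD37 B, with a lowest value of 1.88, and LBD39 D, with a highest value of 1.86 TPM. With nitrate the order turned. In 2N+ABA the LBD39 A, B and D copies were at 16.7 ± 1.05, 15 ± 0.108 and 14.1 ± 1.64 TPM, and the LBD37 A, D and B copies at 7.27 ± 0.666, 6.58 ± 0.119 and 4.84 ± 0.145 TPM. Only the B and D copies of LBD39 overlapped in range among neighbours of this order, and the A and D copies of LBD37 were separated by 6.70 against 6.68 TPM.

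Within each subgenome the ratio of LBD39 to LBD37, as log2 of TPM with a pseudocount of 0.5, changed sign. On the A subgenome it was -2.82, -2.64 and -2.44 in 0N+ABA and 1.11, 1.24 and 1.10 in 2N+ABA. The LBD39 A copy was at 0.91, 0.73 and 0.43 TPM in 0N+ABA, near the size of the pseudocount. The pseudocount therefore draws the 0N+ABA ratios towards 0, and their course over the replicates depends on it. The B subgenome went from a mean of -1.81 ± 0.30 to 1.54 ± 0.05, and the D subgenome from -1.82 ± 1.08 to 1.03 ± 0.15 (SD, n = 3). Every 0N+ABA library was below 0 and every 2N+ABA library above 0 in all 3 pairs. The group difference was 3.78, 3.35 and 2.85 for A, B and D, each with p = 0.1 in a two-sided exact permutation test and 0.1 after Benjamini-Hochberg adjustment over the 3 pairs, which is the smallest p that 3 against 3 allows.

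**Figure D2:**
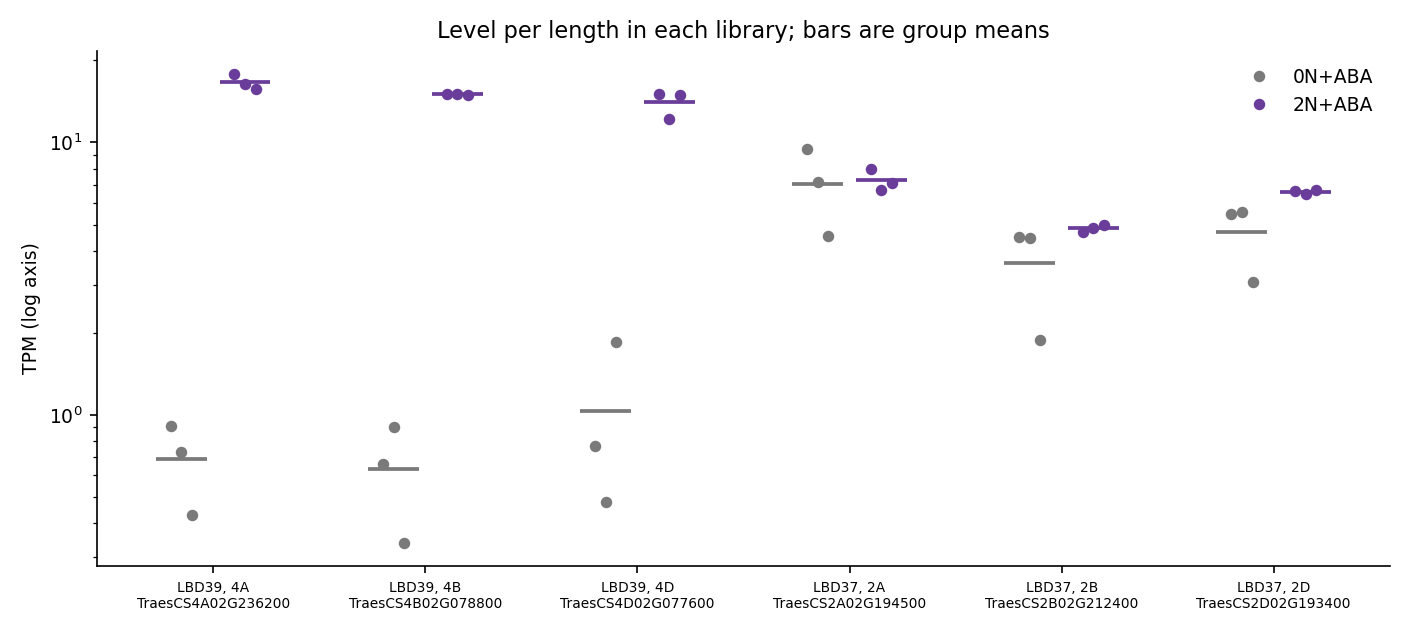
TPM (vertical axis, log scale) of the 6 genes in each library, grey for 0N+ABA and purple for 2N+ABA, with bars at group means. Without nitrate the LBD39 genes lie below the LBD37 genes, and with nitrate all 3 lie above them at 12.16 to 17.81 TPM.

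The summed level of LBD39 went from 2.36 ± 0.261 to 45.7 ± 2.17 TPM, and that of LBD37 from 15.4 ± 5.21 to 18.7 ± 0.663 TPM (SD, n = 3). In 2N+ABA the LBD39 sum was shared almost evenly, with 36.5 ± 1.65% from the A copy, 32.9 ± 1.53% from B and 30.7 ± 2.53% from D. In 0N+ABA the shares scattered from library to library, and the D copy held 32.9%, 22.7% and 70.7% in replicates 1, 2 and 3. These shares rest on 26 to 31 estimated counts in all 3 copies per library, so the copies' shares in 0N+ABA are not resolved at this depth. The LBD37 sum was divided less evenly, with 38.8 ± 2.26% from A, 25.9 ± 1.42% from B and 35.2 ± 0.845% from D in 2N+ABA, and with 46.1 ± 3.85%, 23 ± 3.09% and 30.9 ± 2.43% in 0N+ABA.

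The table names 65 LBD genes in all, so 59 others could be set beside these 6. Of the 59, 33 were tested and 2 were called, both higher in 2N+ABA, which is 6.06% against 2.25% of all tested genes. The other 26 had at most 26.45 estimated counts in any library. The median log2 fold change of the 33 was 0.37, against -0.02 for all tested genes. Groups did not overlap in 9 of the 33, all higher in 2N+ABA, compared with 11.3% of all tested genes in that direction. At an unadjusted p under 0.05 in the same edgeR test, 9 of the 33 were higher and 0 lower, against 8.62% higher and 7.77% lower of all tested genes. In mean TPM the LBD39 A, B and D copies held places 34, 38 and 29 among the 65 LBD genes in 0N+ABA, and places 8, 9 and 10 in 2N+ABA. The LBD37 A copy held place 9 in 0N+ABA and place 14 in 2N+ABA.

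The 2 other called LBD genes carry the name of LBD29, which in Arabidopsis acts downstream of auxin in lateral root formation. TraesCS4D02G312700 was at 2.07, 3.61 and 2.77 CPM in 0N+ABA and at 8.87, 6.71 and 7.27 CPM in 2N+ABA, a log2 fold change of 1.43 (interval 0.95 to 1.92, adjusted p = 0.0156 by edgeR). TraesCS4B02G316100 was at 1.61, 2.35 and 1.00 CPM in 0N+ABA and at 4.63, 4.94 and 5.47 CPM in 2N+ABA, a log2 fold change of 1.59 (interval 0.99 to 2.20, adjusted p = 0.0237 by edgeR). Their groups did not overlap, and their intervals lie below the 3.05 at which the lowest LBD39 interval begins; the difference itself was not tested. The LBD29 calls were less firm than the folds. Leaving out replicate 2 of 0N+ABA brought the number of other LBD genes called to 5, leaving out replicate 2 of 2N+ABA to 1, and leaving out any 1 of the other 4 libraries to 0. Over all genes tested, the same fits called 4607, 539 and 283 to 434 genes.

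Each LBD29 gene has an LBD neighbour with the next gene ID, named after CRL1, which in rice is needed for crown root initiation. On chromosome 4A the gene beside the CRL1-named gene is named LBD16, another lateral root factor of Arabidopsis. Over these 3 pairs of adjacent genes, picked after their values were seen, the 6 log2 fold changes ran from 1.01 to 1.59. Of the 6, the 2 LBD29 genes were called.

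LBD41 also belongs to class II, the class of LBD37 and LBD39, and in Arabidopsis responds to low oxygen. Of its 8 genes 7 were tested and 0 were called, with log2 fold changes from -0.11 to 0.72 and no p under 0.05 in edgeR's test. DESeq2 likewise called 0 of them. All 7 were lowest in 0N+ABA replicate 2 and 6 of 7 were highest in 2N+ABA replicate 2, with medians of -1.09 and 0.87 log2 units relative to each gene's own mean. Of the LBD39 genes, the A and B copies were lowest in 0N+ABA replicate 3 and the D copy in replicate 2. No gene was named LBD40 or LBD42, the other class II members.

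**Figure D3:**
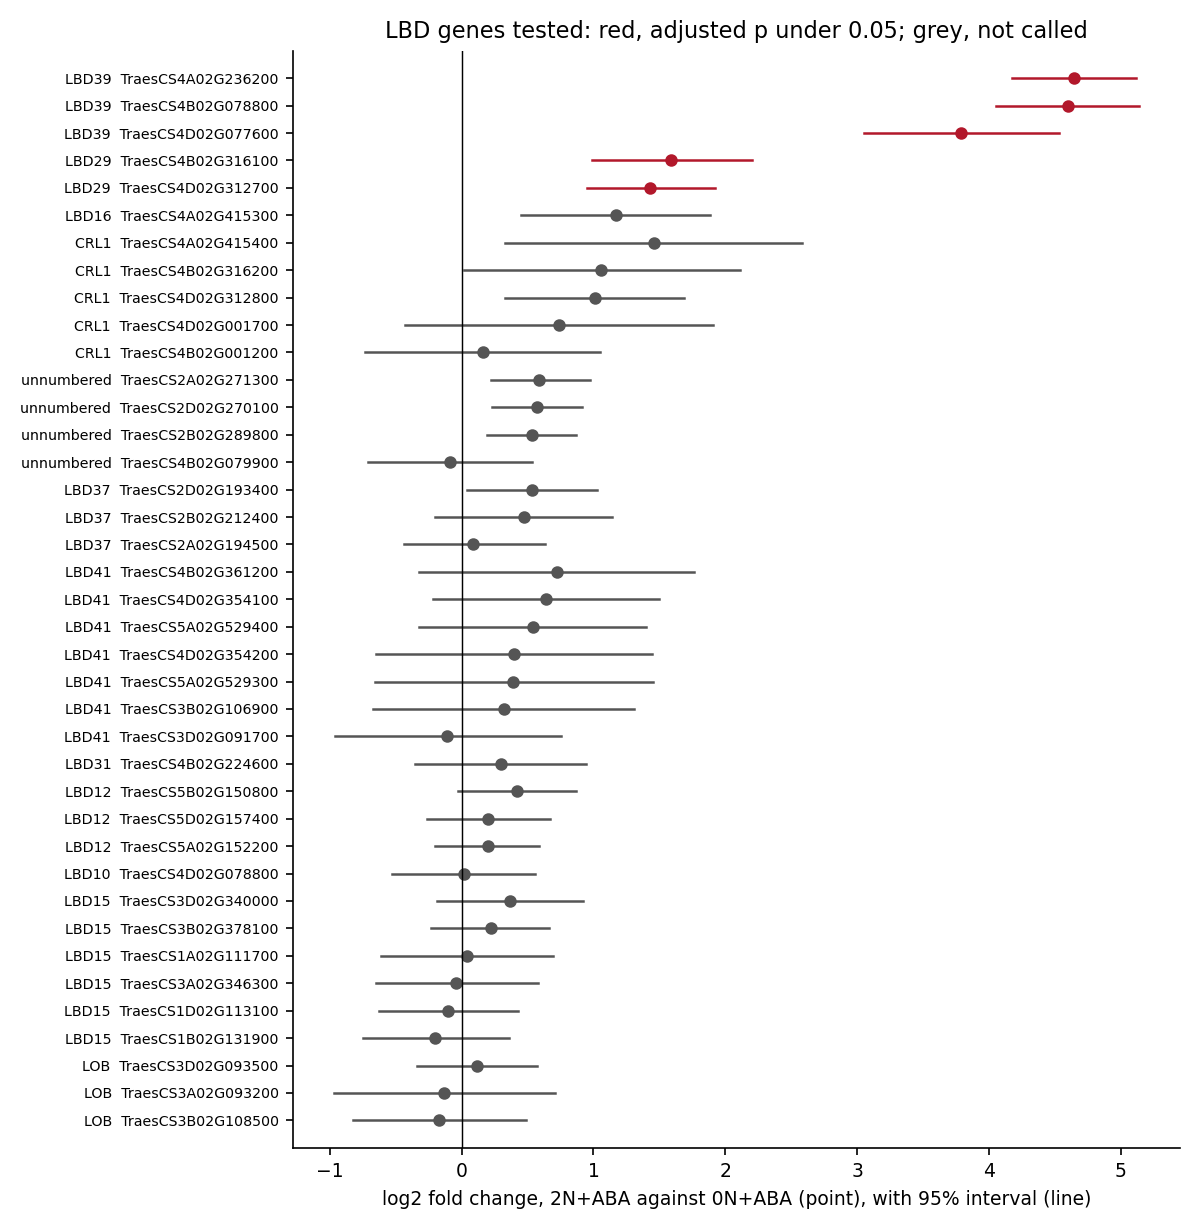
Log2 fold change of 2N+ABA against 0N+ABA (horizontal axis) with its 95% interval from edgeR for each tested LBD gene, grouped by name; red marks genes with an adjusted p under 0.05. The 3 LBD39 genes lie at 3.79 to 4.64, the 2 LBD29 genes at 1.43 and 1.59, and all other LBD genes, LBD37 among them, are not called.

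Genes next to the 6 in the gene ID order were looked at after their values were seen, taking 2 on each side. Of these 24 neighbours 16 were tested and 0 were called higher or lower, against 2.25% of all tested genes. At that share 0 of 16 would be usual, so the count says nothing particular about these genes. The 7 tested neighbours of LBD39 had log2 fold changes from -0.80 to 0.36. Among them, the NPY2 genes that directly adjoin LBD39 in all 3 subgenomes had -0.17, -0.11 and -0.27 on A, B and D. The 9 tested neighbours of LBD37 ran from -0.24 to 0.95. In all 3 subgenomes LBD39 lay between a gene named NPY2 and an AP2/ERF factor gene, and LBD37 between genes named Scarecrow-like protein 32 and queuosine salvage protein.

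Genes whose profile over the 6 libraries was most like that of TraesCS4A02G236200 were taken by the smallest root mean square (RMS) difference in log2 CPM after centring each gene, over 39711 genes with a described protein and a mean of at least 1 CPM. The median RMS difference of all compared genes was 2.361. The B copy of LBD39 differed by 0.246, closer than any gene outside the set, and the D copy by 0.866, whereas the LBD37 genes differed by 2.040 to 2.252. The 8 closest genes outside the set differed by 0.298 to 0.416. Nearest was a ferredoxin-nitrite reductase gene, TraesCS6B02G364600, whose enzyme reduces nitrite to ammonium, at 14.5 ± 6.27 CPM in 0N+ABA and 356 ± 90 CPM in 2N+ABA (SD, n = 3), a log2 fold change of 4.62. A further nitrite reductase gene, TraesCS6A02G333900 (RMS difference 0.397), and a nitrate reductase gene, TraesCS6A02G326200 (0.396), were among the 8. TraesCS3D02G225500 (0.416) is named uroporphyrinogen-III C-methyltransferase, an enzyme of siroheme synthesis; siroheme is the cofactor of nitrite reductase.

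The other 4 genes had other names. TraesCS1D02G340600 (RMS difference 0.355) is named non-symbiotic hemoglobin, a class that scavenges nitric oxide, and went from 1.93 ± 0.173 to 59.1 ± 10.2 CPM. TraesCS7A02G435000 (0.302) is named tyrosine-sulfated glycopeptide receptor 1, TraesCS7A02G454400 (0.391) carbonic anhydrase, and TraesCS2B02G125700 (0.392) peroxidase 70. These 8 genes were all called higher, with log2 fold changes of 4.06 to 5.15. They were picked for likeness to TraesCS4A02G236200 in the same 6 libraries, so these calls follow from the choice and are no separate result. Pearson's r with TraesCS4A02G236200 over the 6 libraries was 0.986 or more for each, but 87 genes had an r that high, and the 8 genes with the highest r shared 0 with these 8.

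**Figure D4:**
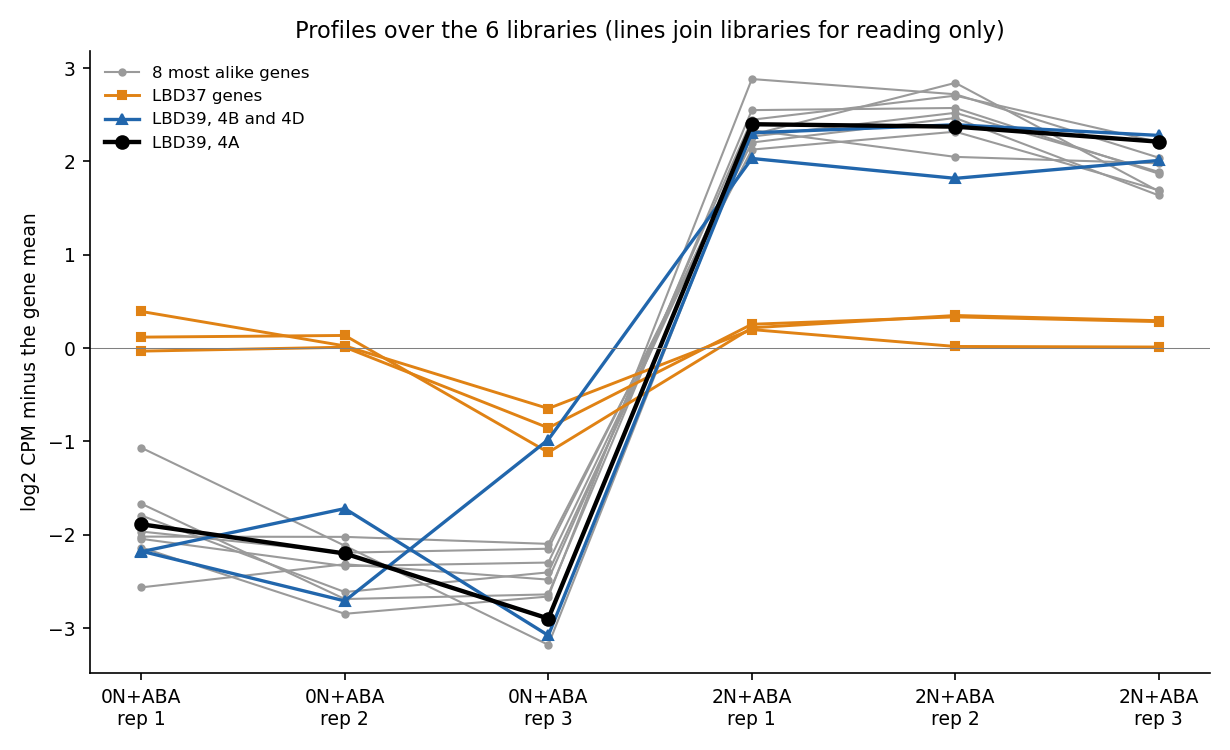
Log2 CPM minus each gene's mean over the 6 libraries (vertical axis) for LBD39 A (black), LBD39 B and D (blue), the LBD37 genes (orange) and the 8 genes most like LBD39 A (grey); lines only link points of a gene. LBD39 and the 8 genes lie below -0.9 in every 0N+ABA library and above 1.6 in every 2N+ABA library, and LBD37 stays between -1.12 and 0.39.

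Genes of nitrate uptake and reduction, the kind that overexpressed LBD37, LBD38 or LBD39 lowers in Arabidopsis, were counted from their names. The list held 53 genes, of which 35 were tested, and 30 rose and 0 fell in 2N+ABA, with a median log2 fold change of 4.23. All genes tested had a median of -0.02, and 1.67% of them were called higher. Of the 35, 13 exceeded the low-count threshold in fewer than 3 of the 0N+ABA libraries and so could enter only through 2N+ABA; among the 22 that exceeded it in all 3, 18 rose. No gene was named after the Arabidopsis anthocyanin MYB factors of the list. LBD39 and these genes were thus high in the same libraries.

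The NRT2.1 high-affinity nitrate transporters rose in 15 of 15 tested genes, and 16 more genes of that name were not tested. Those under the low-count threshold in 0N+ABA could enter only through 2N+ABA, so the count of 15 is partly set by the filter. Of the 15, the 9 with a mean of at least 3 counts per library in 0N+ABA had log2 fold changes of 5.38 to 7.43. Another 4 had fewer counts there, so no fold is given, and means of 4.75 to 47.9 CPM in 2N+ABA. The other 2 had no count in 0N+ABA and were at least 36.1-fold and 67.7-fold higher, against a floor of 3 counts in each library. With every gene of the list under that floor set to it, the list's median was also 4.23. These genes stayed on their side of the median, so it could not move and this is no support for it. The median includes the 13 genes that could enter only through 2N+ABA, and it was not computed without them. Their partner proteins, the nitrate transporter-activating proteins of the NAR2 type, rose in 8 of 8 genes by 2.21 to 5.38. TraesCS6B02G238800 of this group went from 38.9 ± 1.24 to 308 ± 54.8 CPM, with no overlap between groups and an adjusted p of 9.15e-05 by edgeR. TraesCS4A02G367300 went from 4.71 ± 0.542 to 196 ± 62.7 CPM, TraesCS5D02G506100 from 20 ± 2.50 to 375 ± 95.8 CPM and TraesCS6D02G193200 from 19.8 ± 0.493 to 189 ± 39.8 CPM (SD, n = 3), each with an adjusted p of 9.44e-05 by edgeR. Nitrate reductase genes rose in 6 of 7, with log2 fold changes of 1.65 to 4.58 over the 7. NRT2.3 genes did not pass in any of 3, and NRT2.4 genes passed in 1 of 2.

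Flavonoid and anthocyanin synthesis is the other process that these factors repress in Arabidopsis. Of 200 genes 108 were tested, and 0 were called higher and 2 lower. These are 1.85% of those tested, near the 2.25% of all genes. At an unadjusted p under 0.05 in edgeR's test, 6 of the 108 were higher and 16 lower, against 8.62% higher and 7.77% lower of all tested genes. The median log2 fold change of the list was -0.08. A putative anthocyanidin reductase, TraesCS2B02G204600, fell from 26.9 ± 5.89 to 11.3 ± 0.995 CPM (log2 fold change -1.25, adjusted p = 0.00925 by edgeR). An anthocyanidin 5,3-O-glucosyltransferase, TraesCS1B02G361500, fell from 7.19 ± 0.736 to 3.90 ± 0.588 CPM (log2 fold change -0.88, adjusted p = 0.032 by edgeR), and this call held in 1 of 6 fits with a library left out. Leaving out replicate 2 of 0N+ABA brought the count for the list to 13 of 111 tested, with 4 higher and 9 lower. The list's count was 3 when replicate 2 of 2N+ABA was left out, and 0 or 1 for any other library. Over all genes, 4607 of 54991 tested were called without 0N+ABA replicate 2, and 283 to 539 without any other 1 library. The shifts are thus not particular to this list.

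Other regulators of the nitrate response had log2 fold changes of -1.13 to 2.28. Of 104 such genes 79 were tested, and 6 rose and 6 fell, with a median log2 fold change of -0.02. The called genes are 15.2% of those tested, against 2.25% of all tested genes. NLP proteins activate nitrate-responsive genes. An NLP3 gene, TraesCS6B02G130800, rose from 1.46 ± 0.272 to 7.13 ± 0.136 CPM (log2 fold change 2.28, adjusted p = 0.000535 by edgeR), the highest fold of the list. NIGT1 factors are repressors that nitrate induces in Arabidopsis, and genes of the related name HHO were listed with them. TraesCS5D02G411800, named HHO5, rose from 7.66 ± 1.96 to 26.1 ± 1.12 CPM (log2 fold change 1.77, adjusted p = 0.00207 by edgeR). Both kinds also held genes that fell or did not pass. NLP1 genes fell in 4 of 8, with TraesCS4B02G325500 going from 22.6 ± 3.54 to 10.4 ± 0.211 CPM (adjusted p = 0.0054 by edgeR) and TraesCS5A02G497800 from 9.24 ± 0.423 to 4.56 ± 0.240 CPM (adjusted p = 0.00547 by edgeR). Of 3 genes named NIGT1, 1 fell and 0 rose, and of 2 genes named HHO3, 0 were called. The list's count was 22 without 0N+ABA replicate 2 and 2 to 6 without any 1 of the other 5 libraries. Over all genes tested, these fits called 4607 genes and 283 to 539 genes. All 3 LBD39 intervals begin above 2.67, where the NLP3 interval ends, but the difference between these folds was not tested.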

How the data were processed

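The authors deposited 1 table with estimated counts per gene and library, which are not normalized, and TPM values, per the file headers. The submitters' processing notes name HISAT and Bowtie2, with no version or role. Which tool did the counting, on which build and annotation, is not given in the sources used here; neither strand nor molecular identifiers appear in the labels' protocols. Counts therefore are not independent molecules, and overlapping transcripts cannot be separated. Left unused were 2 columns that belong to other groups.

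After rounding to whole numbers, the estimated counts went into edgeR 4.0.16 under R 4.3.3 (filterByExpr, TMM scaling, glmQLFit and glmQLFTest, no covariate), 2N+ABA against 0N+ABA. The filter kept 53862 genes with 99.6% of the counts. Benjamini-Hochberg adjustment ran over all of these genes. Standard errors follow from the F statistic of that test, and 95% intervals cover the spread between libraries. The procedure was also run on simulated data with known changes, and the outcome is not reported here. Alternatives were DESeq2 1.42.0, DESeq2 size factors in edgeR, limma-voom and limma on log2(TPM + 0.5) with limma 3.58.1, no filter, a replicate block, and each library left out.

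The members and the name lists were chosen with earlier results of these data known. The naming rule took all 6 members, called or class II LBD genes (LBD41, given mostly as a group), in each list the called genes of smallest p (at most 4), and the 8 described genes most like TraesCS4A02G236200; other genes in the text were chosen after their values were seen. The reference gene table matched 0 of the gene IDs, so chromosomes come from the IDs, and no coordinates or sequences are given.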

Additional observations from a re-analysis of the deposited data

How the results depend on the processing

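Over 12 alternatives LBD39 was called in 3 of 3 genes and LBD37 in 0 of 3 each time. Log2 fold changes ran from 3.87 to 4.89 for LBD39 A, 3.81 to 4.95 for B and 3.34 to 4.47 for D, with adjusted p of at most 0.0119. The LBD37 A copy, TraesCS2A02G194500, turned to -0.14 without 0N+ABA replicate 3 and ranged from -0.14 to 0.35 with a library left out. The other LBD genes called, 2 in the report, were 6 with DESeq2, 0 with the replicate block and 0 to 5 with a library left out. The flavonoid and anthocyanin genes called, 2 in the report, were 6 with DESeq2, 4 with no filter, 1 with the replicate block and 0 to 13 with a library left out. The 12 regulators called became 2 to 22, and the 30 nitrate uptake and reduction genes 24 to 32, with a library left out. Over all genes 1210 were called, 2193 with DESeq2, 723 with the replicate block and 283 to 4607 with a library left out, the highest without 0N+ABA replicate 2. The cause of these shifts was not tested. Under the replicate block LBD39 A, B and D had log2 fold changes of 4.66, 4.62 and 3.83 and both LBD29 genes passed the threshold no longer (adjusted p = 0.06 and 0.0614 by edgeR). Same-numbered libraries correlated at 0.07, -0.23 and -0.22 in their deviations from group means. With 3 libraries per group, these values cannot show whether the numbers pair the libraries. Uncalled LBD41 genes changed sign: TraesCS3B02G106900 was -0.05 without 0N+ABA replicate 2 and -0.03 without 2N+ABA replicate 2, TraesCS3D02G091700 was 0.19 without 0N+ABA replicate 1 and 0.15 without 2N+ABA replicate 3, and TraesCS5A02G529300 was -0.01 without 2N+ABA replicate 2. Their ranges with a library left out were -0.05 to 0.74, -0.42 to 0.19 and -0.01 to 0.90. By Pearson's r instead of RMS difference, 0 of the 8 genes most like LBD39 A were kept. Among the 27 genes besides the members that the naming rule took, all LBD41 genes tested included, 18 kept their direction and side of the threshold under all 12 alternatives. Depth limits LBD39 in 0N+ABA, where each copy had at most 15 counts in a library.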

Other observations

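The highest LBD levels in these roots belonged to 3 genes on chromosome 2 named only as LOB domain-containing protein, with no number. In TPM, TraesCS2B02G289800 was at 144, 108 and 130.2 in 0N+ABA and at 169.9, 199 and 161 in 2N+ABA. TraesCS2A02G271300 was at 115, 80.6 and 98.5 in 0N+ABA and at 135, 163 and 128 in 2N+ABA. TraesCS2D02G270100 was at 52.9, 64.1 and 54.0 in 0N+ABA and at 70.1, 92.3 and 82.2 in 2N+ABA. For these 3 genes every 2N+ABA library was above every 0N+ABA library. Their log2 fold changes were 0.53 to 0.59, with adjusted p of 0.0977 to 0.12 by edgeR's quasi-likelihood test, while DESeq2 called all 3 higher (adjusted p of 0.0237, 0.0277 and 0.0391 for the D, A and B copies). They were chosen for their level after the values were seen.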
